A study of Homo sapiens with 4 samples.

Results

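A set of 102 gene names was close to silent in untreated cells of 2 anaplastic thyroid cancer (ATC) lines and on in both paclitaxel-resistant populations labelled as derived from them. The members were selected on their measured levels: an FPKM below 0.5 in both wild-type (wt) libraries and above 2 in both resistant (PTX) libraries, with the values of all rows of a gene name summed. They are 102 of the 26485 gene names listed, and 0.783% of the 13028 names below 0.5 FPKM in both wt libraries. FPKM is a fragment count divided by transcript length and by sequencing depth, so levels of different genes can be compared on this scale.

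SW1736 and 8505C are established human cell lines from ATC, an undifferentiated and aggressive thyroid tumour, and both were grown in RPMI-1640 medium with serum. The groups were SW1736 wt and 8505C wt, which received no paclitaxel, and SW1736-PTX and 8505C-PTX, which were obtained by raising the dose of this taxane from 1 nM to 1.5 µM during 6 months and were then kept in 1.5 µM. The RNA of each group was sequenced as 1 library, 4 in all, so the spread between cultures is unknown, no p-value was computed, and each PTX group is 1 selected population. The question was which genes accompany the acquisition of resistance. Because all 4 values entered the choice of the genes, the rise itself is a description and not a result, and so is every count of increases among them. In each of the 102 genes both wt values lie below both PTX values because the rule requires it. By their labels the lines are separate tumours' cells and not replicates of each other. Whether this holds for the library labelled SW1736-PTX was not tested, as described below. In bulk RNA, more cells that express a gene and more RNA per cell cannot be told apart.

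Paclitaxel stabilizes microtubules and arrests dividing cells in mitosis. Cells can escape by pumping the drug out, chiefly through ABCB1 (P-glycoprotein), an ATP-driven efflux pump of the plasma membrane with a broad range of hydrophobic substrates. In most tissues a gene that is silent is held so by closed chromatin, often together with DNA methylation of CpG sites near its start, and a selected cell population can differ from its parent in which of these genes are transcribed. Neither chromatin nor methylation was measured here.

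Estimated depth lay between 3.27 and 4.34 gigabases of aligned sequence per library, and both PTX libraries were deeper than both wt libraries. Gene names listed at 0 numbered 10379 in SW1736 wt, 10241 in 8505C wt, 8485 in SW1736-PTX and 8869 in 8505C-PTX. Among thyroid follicular markers, TSHR and SLC5A5 were listed at 0 in every library and TG did not exceed 0.00586 FPKM, and such genes are commonly lost in ATC. The library labelled SW1736-PTX went against its label: across 14692 expressed genes, which are not independent replicates, its Pearson's r on log2(FPKM + 0.1) was 0.767 with SW1736 wt, 0.873 with 8505C wt and 0.933 with 8505C-PTX. Of 148 genes above 5 FPKM in 8505C wt and below 0.5 in SW1736 wt, 132 (89.2%) were above 1 FPKM in SW1736-PTX, but only 40 of 145 (27.6%) of the genes with the opposite pattern were. The methods of the study state that the identity of both lines was checked by short tandem repeats, without saying whether the resistant populations were included, and the origin of this library was not tested here. PAX8 and FOXE1, thyroid transcription factors, were at 38.2 and 26.6 FPKM in SW1736 wt but at 0.206 and 0.511 in SW1736-PTX, while NKX2-1, another one, was at 0, 36.3, 30.5 and 39.0 FPKM in SW1736 wt, SW1736-PTX, 8505C wt and 8505C-PTX. The same order of libraries is used for every series of 4 values that follows.

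Because the 102 genes were silent in both wt lines, the rise in SW1736-PTX can be set against either parent. The median log2 fold change, log2((PTX + 0.1)/(wt + 0.1)), was 5.08 for SW1736-PTX over SW1736 wt, 4.24 for SW1736-PTX over 8505C wt and 4.28 for 8505C-PTX over 8505C wt, beside 0.01, 0.10 and 0.11 over all genes compared. The rule already places every member beyond the log2 fold change of 1.5 used as a call, so that 102 of 102 were called up-regulated in both lines, where 15.7% of 14202 genes were in SW1736 and 15% of 13794 in 8505C. Without SW1736 wt the rule would have taken 198 genes, without 8505C wt 480, without SW1736-PTX 208 and without 8505C-PTX 201, each including the 102.

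The reverse rule, below 0.5 FPKM in both PTX libraries and above 2 in both wt libraries, took 8 genes: ADAM12, CDA, CHFR, MPP4, NTM, PNPLA4, PRSS3 and PSMD5. CHFR encodes a checkpoint protein that delays entry into mitosis under microtubule stress, and it was at 4.30, 0.192, 3.41 and 0.318 FPKM. The 8 genes were 0.0640% of the 12499 names below 0.5 FPKM in both PTX libraries. With an upper limit of 0.5 FPKM, 635 genes passed the rule and 115 its reverse, with 1 FPKM 288 and 33, and with 5 FPKM 22 and 0. As given above, the PTX libraries were also the deeper ones and listed fewer names at 0, and the part of this in the unequal counts was not tested.

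**Figure D1:**
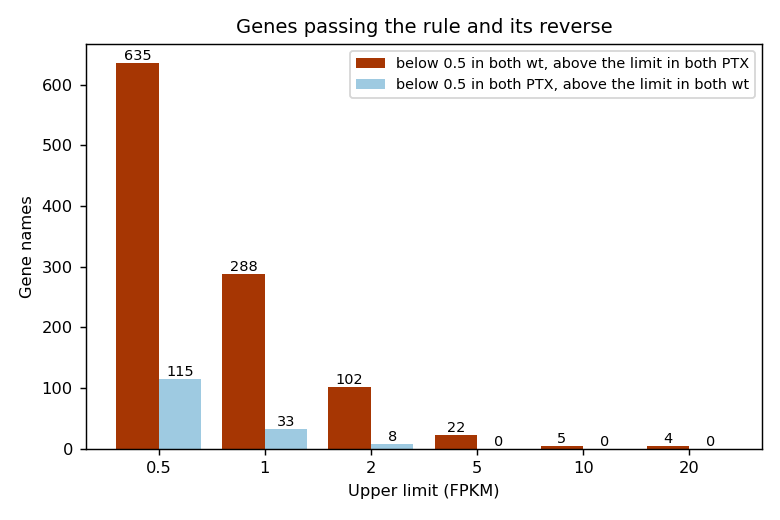
Number of gene names below 0.5 FPKM in both libraries of one condition and above an upper limit (x axis, FPKM) in both libraries of the other, for silent in wt and on in PTX (dark bars) and for the reverse (light bars). At the limit of 2 FPKM used here the bars stand at 102 and 8, and the dark bar is the higher one at each limit.

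At the upper limit of 2 FPKM, 99 further genes that were silent in both wt libraries passed in SW1736-PTX alone and 106 in 8505C-PTX alone. Genes just inside the limits were IGFBP5, at 0.498 FPKM in SW1736 wt, and MST1, at 2.03 FPKM in SW1736-PTX, with SHANK3 at 2.03 FPKM in 8505C-PTX. Just outside were SNTB1, at 0.503 FPKM in 8505C wt, ATP6AP1L, at 1.97 FPKM in 8505C-PTX, and HLA-DMA, at 1.97 FPKM in SW1736-PTX.

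The members were mostly genes of low abundance. The median level was 4.33 FPKM in SW1736-PTX and 4.19 in 8505C-PTX, and 80 of the 102 had a value of at most 5 FPKM in the lower PTX library, 43 of them below 3. Only 5 were above 10 FPKM in both PTX libraries: ABCB1, ALPPL2, WFDC21P, PIEZO2 and WISP2. In wt cells the lines differed in how the genes were silent, since 52 of the 102 were listed at 0 in SW1736 wt and 13 in 8505C wt, with 9 at 0 in both, although both wt libraries listed a like share of all silent names at 0 (76.9% and 76.8%). SW1736 wt was the lower of the wt libraries for 68 genes. HAP1, which encodes a huntingtin-associated protein of vesicle transport, had no signal in SW1736 wt but 0.424 FPKM in 8505C wt, which is about 72.6 reads on its transcript.

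**Figure D2:**
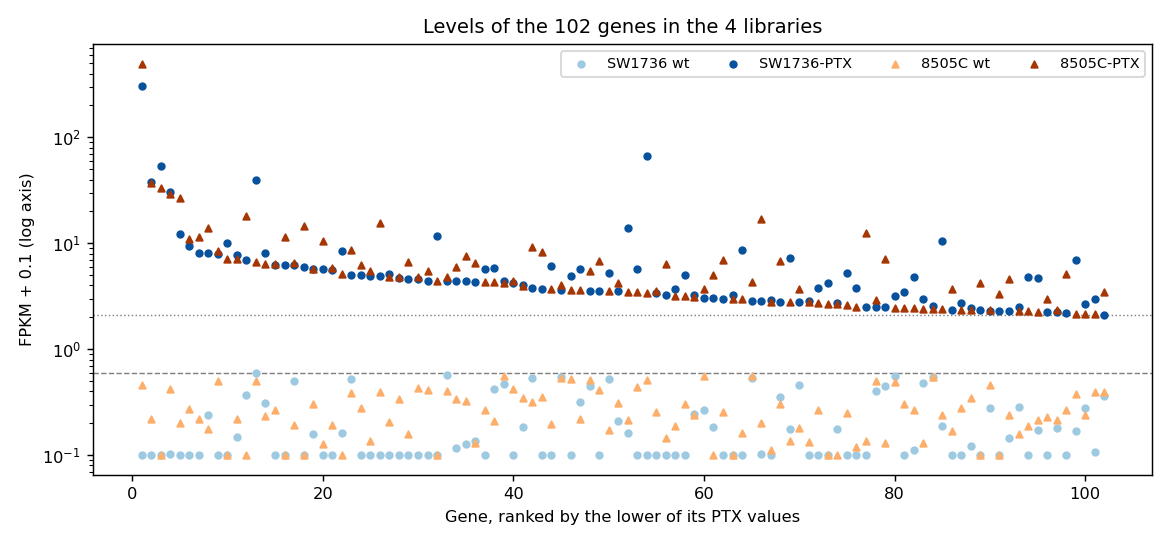
FPKM + 0.1 on a log axis for each of the 102 genes in the 4 libraries (circles SW1736, triangles 8505C; pale wt, dark PTX), ranked by the lower PTX value; the dashed and dotted lines are the limits of 0.5 and 2 FPKM, each with 0.1 added, and genes at 0 sit at 0.1. ABCB1, at rank 1, stands apart from the rest, and most genes lie between 2 and 5 FPKM in the lower PTX library.

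ABCB1 (chromosome 7, 87503863 to 87713323, hg38, minus strand) was at 0, 302.3, 0.363 and 497 FPKM. It was the most abundant member in both PTX libraries and the only one of its family, of whose 46 listed genes 22 were silent in both wt libraries. RUNDC3B, which overlaps ABCB1 on the opposite strand, was at 0, 14.8, 0.570 and 34.1 FPKM, far below ABCB1 itself. The rise was at least 25666-fold over the FPKM that 3 reads would give in SW1736 wt, and 1368-fold in 8505C, where about 82.3 reads were present in wt cells. SW1736-PTX over 8505C wt gave 832-fold. Its close relative ABCB4, a phospholipid translocator encoded next to it, was at 0, 0.434, 0 and 4.38 FPKM. A further member of this region was STEAP4 (chromosome 7, 88276429 to 88306913), a metalloreductase that reduces iron and copper, with 0, 2.42, 0.0367 and 12.4 FPKM. Of the 22 names listed in the region, 17 could be compared in each line, with 9 increases and 0 decreases called in SW1736 and with 13 and 1 in 8505C. The members ABCB1 and STEAP4 are among the increases of each line because the rule requires it. Over all genes compared, decreases were called for 10.2% in SW1736 and 5.89% in 8505C, beside the 15.7% and 15% increases.

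ALPPL2 (chromosome 2, 232406842 to 232410714), now named ALPG, encodes the placental-like alkaline phosphatase of germ cells, and it was at 0, 37.5, 0.120 and 36.6 FPKM. Its neighbour ALPP, the placental enzyme of nearly the same sequence, was at 0, 81.6, 0.637 and 77.9 FPKM, just above the wt limit in 8505C, so reads of one gene may have been counted on the other. ALPI and ALPL, the intestinal and the tissue-nonspecific enzyme, were listed at 0 in all 4 libraries. WFDC21P (chromosome 17, 60083566 to 60088467), a transcribed pseudogene of the whey acidic protein family, was at 0, 54.0, 0 and 33.0 FPKM, with no wt signal at all. PIEZO2 (chromosome 18, 10670247 to 11148762) encodes a mechanically gated cation channel known from touch neurons and Merkel cells, and it was at 0.00281, 30.4, 0.320 and 29.0 FPKM. The other channel of its kind, PIEZO1, was on in all cells, with 38.6, 19.4, 28.9 and 25.8 FPKM. PIEZO2 and ALPPL2 were close in the PTX libraries, with ratios of 1.05 and 1.02 between the higher and the lower library.

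The bases before the RefSeq start sites of these genes (GRCh38.p14, each 250 bases ending at the base before the start, written 5′ to 3′ on the gene's strand) are shown because they differ widely in CpG sites, which are in capitals. The ABCB1 window (chr7:87713296-87713545, minus strand) has 1 CpG and a GC content of 39.2%, the ALPPL2 window (chr2:232406594-232406843, plus strand) 2 and 63.2%, and the PIEZO2 window (chr18:11149570-11149819, minus strand) 29 and 76.8%. For ABCB1 the choice of start matters, since the 250 bases before its canonical GENCODE start have 12 CpG and a GC content of 55.6%, while for ALPPL2 and PIEZO2 both choices gave the same values.
ABCB1: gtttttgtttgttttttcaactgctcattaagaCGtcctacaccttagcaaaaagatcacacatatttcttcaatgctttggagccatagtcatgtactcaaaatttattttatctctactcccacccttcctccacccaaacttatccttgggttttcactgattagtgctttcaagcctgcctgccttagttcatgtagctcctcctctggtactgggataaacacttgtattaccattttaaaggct
ALPPL2: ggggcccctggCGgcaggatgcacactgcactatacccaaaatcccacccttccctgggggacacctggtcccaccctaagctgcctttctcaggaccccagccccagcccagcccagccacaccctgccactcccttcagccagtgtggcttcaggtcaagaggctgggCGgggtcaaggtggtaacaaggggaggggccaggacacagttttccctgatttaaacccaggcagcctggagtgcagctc
PIEZO2: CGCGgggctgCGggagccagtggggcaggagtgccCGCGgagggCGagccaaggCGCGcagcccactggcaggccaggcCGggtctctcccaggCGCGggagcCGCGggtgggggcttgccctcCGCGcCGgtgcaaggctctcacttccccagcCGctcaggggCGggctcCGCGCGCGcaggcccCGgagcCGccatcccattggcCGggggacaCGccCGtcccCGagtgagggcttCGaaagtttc
ALPPL2 thus had few CpG sites and PIEZO2 many under both choices of start.

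Over the whole set, the 250 bases before the start of the canonical GENCODE transcript were read from the hg38 genome for 100 of the 102 genes. The ratio of observed CpG to that expected from the C and G content had a median of 0.73, between 0.32 for the other silent genes and 0.85 for the other genes above 2 FPKM in both PTX libraries. A ratio above 0.6 was found for 65 of the 100 members, ABCB1 among them with 0.622 at this start against 0.115 at the RefSeq start, for 28.3% of 11177 other silent genes and for 88.2% of 10284 other genes on in PTX cells. Among protein-coding genes alone the shares were 66.3% of 92 members and 34.0% of 6984 silent genes. The median GC content was 67.8% for the members, 53.2% for other silent genes and 66.4% for other genes on in PTX cells.

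**Figure D3:**
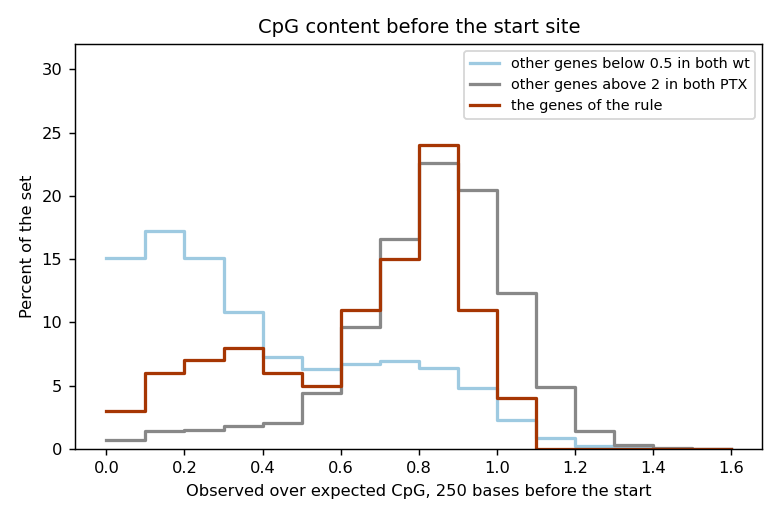
Distribution of the ratio of observed to expected CpG (x axis) in the 250 bases before the start, as percent of each set (y axis), for the genes of the rule, other genes below 0.5 FPKM in both wt libraries and other genes above 2 FPKM in both PTX libraries. Medians were 0.73, 0.32 and 0.85, and the members span low and high ratios.

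Short motifs were counted in the same windows on both strands, as letters and not as bound sites. The GC box GGGCGG, read by SP1 and related factors, was in 70 of 100 members, 74.0% of other genes on in PTX cells, 30.3% of other silent genes and 51.7% of all 24278 windows. A pattern of 3 G, any 5 bases and 2 C, which NF-κB sites match but most matches are not such sites, was in 76 members, 73.2% of other genes on in PTX cells, 48.7% of other silent genes and 60.8% of all windows. For the remaining motifs 3 shares follow the count in members: other genes on in PTX cells, other silent genes and all windows. The AP-1 site TGANTCA was in 7 members (3.03%, 7.41% and 5.25%) and the TEAD site GGAATG in 13 (8.98%, 11.6% and 10.3%). The TATA box TATAAA was in 8 (4.64%, 15.7% and 10.2%), the inverted CCAAT box ATTGG in 29 (35.3%, 32.4% and 33.6%), and the E-box CANNTG in 46 (50.03%, 67.7% and 59.0%). The ETS core CCGGAA, whose last letters can overlap a TEAD site, was in 13 members (27.9%, 7.11% and 16.9%). The GAS element TTCNNNGAA was in 3 (4.99%, 6.92% and 5.96%), and the C/EBP-ATF site TGATGCAA in 2 (0.331%, 0.913% and 0.626%). The start site used in these cells is not known from gene-level values, so a window may lie away from it.

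Protein-coding genes made up 93 of the 102 members, 54.7% of all silent names and 94.7% of the names above 2 FPKM in both PTX libraries. Of the silent protein-coding genes, 1.31% were members. The others were WFDC21P, FAHD2CP and INTS4P2 (transcribed pseudogenes), EPB41L4A-AS2, PCAT6 and HOTAIR (long non-coding RNAs), the hairpins MIR27B and MIR6891, and LOC388849, which has no current entry. The median transcript was 2979 bp long over 100 members, 1672 bp over silent names and 3231 bp over names on in PTX cells. HOTAIR (chromosome 12, 53962308 to 53974956), the non-coding RNA of the HOXC cluster, was at 0.0232, 2.35, 0.246 and 2.24 FPKM.

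Some members were channels and carriers, most of them proteins of the plasma membrane. Of 388 genes named as ion channels or gap junctions, 302 were silent in both wt libraries and 6 of these (1.99%) were members, and of 430 solute carriers 202 were silent and 4 (1.98%) were members. Of all silent names 0.783% were members, and of silent protein-coding genes 1.31%, and the list counts that follow are to be read beside these shares. KCNG1 (chromosome 20, 51003656 to 51023138), which encodes a modifier subunit of voltage-gated potassium channels, was at 0, 8.05, 0.122 and 11.4 FPKM. KCNE4, an inhibitory accessory subunit, was at 0.0856, 3.93, 0.249 and 3.87 FPKM, and KCNT2, a sodium-activated potassium channel, at 0, 3.71, 0.0205 and 2.43. The glutamate receptor subunits GRIN3B and GRID1 were at 4.98 and 5.10 FPKM in SW1736-PTX and at 8.60 and 3.46 in 8505C-PTX. GRIN3B overlaps the abundant TMEM259 on the other strand (69.0, 129, 74.0 and 96.3 FPKM), so reads may belong to either. SLC22A17 (chromosome 14, 23346311 to 23352912), a receptor for lipocalin 2, was at 0, 5.90, 0 and 14.3 FPKM, a rise of at least 228-fold and at least 494-fold, and of at least 203-fold for SW1736-PTX over 8505C wt. SLC4A4, a sodium bicarbonate cotransporter, was at 0, 4.35, 0.315 and 5.43 FPKM. FXYD6, a regulator of the sodium pump, was at 0, 5.57, 0.0273 and 10.3 FPKM.

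Of the 20 gene lists used, which were matched by symbol and held 55 of the members, the synaptic and neuronal list had the highest share of members apart from the neighbours of ABCB1. The lists were chosen with earlier results of these data known, so this rank only describes them and is no test of enrichment. Of its 225 names, 144 were silent in both wt libraries and 10 of these (6.94%) were members, beside 1.31% of silent protein-coding genes. In the whole neuronal list, 43 increases and 16 decreases were called among 105 genes compared in SW1736, and 38 and 9 among 96 in 8505C. The increases were 41.0% and 39.6% of the genes compared, where all genes gave 15.7% and 15%, and the decreases 15.2% and 9.38%, where all genes gave 10.2% and 5.89%. The list's members of the rule are among these increases, and most other lists used here also exceeded the share over all genes. RIMS4 (chromosome 20, 44751804 to 44810338), which encodes a regulator of synaptic vesicle release, was at 0, 9.23, 0.174 and 10.8 FPKM, a rise of at least 815-fold in SW1736 (53.2-fold over 8505C wt) and of 62.3-fold in 8505C. PCLO (chromosome 7, 82754005 to 83162881) encodes piccolo, a giant scaffold of the presynaptic zone, and was at 0.0875, 10.5, 0.141 and 2.29 FPKM, while SHANK3, a scaffold of the postsynaptic side, was at 0.00773, 2.86, 0.292 and 2.03. The secreted glycoprotein OLFM1 (chromosome 9, 135075243 to 135121184) showed the widest gap between the resistant lines, with 0, 66.2, 0.408 and 3.29 FPKM. Its rise was at least 3002-fold in SW1736 and 8.05-fold in 8505C, and SW1736-PTX over 8505C wt gave 162-fold. MAP2, a microtubule-associated protein of dendrites, was at 0.351, 2.38, 0.0312 and 7.06 FPKM. GNG7 and RGS9, a G protein gamma subunit and a regulator that speeds the hydrolysis of GTP by G proteins, were at 5.49 and 13.8 FPKM in SW1736-PTX and at 5.80 and 3.36 in 8505C-PTX. The neuroendocrine markers CHGA, SYP and CALCA were below 0.5 FPKM in every library.

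**Figure D4:**
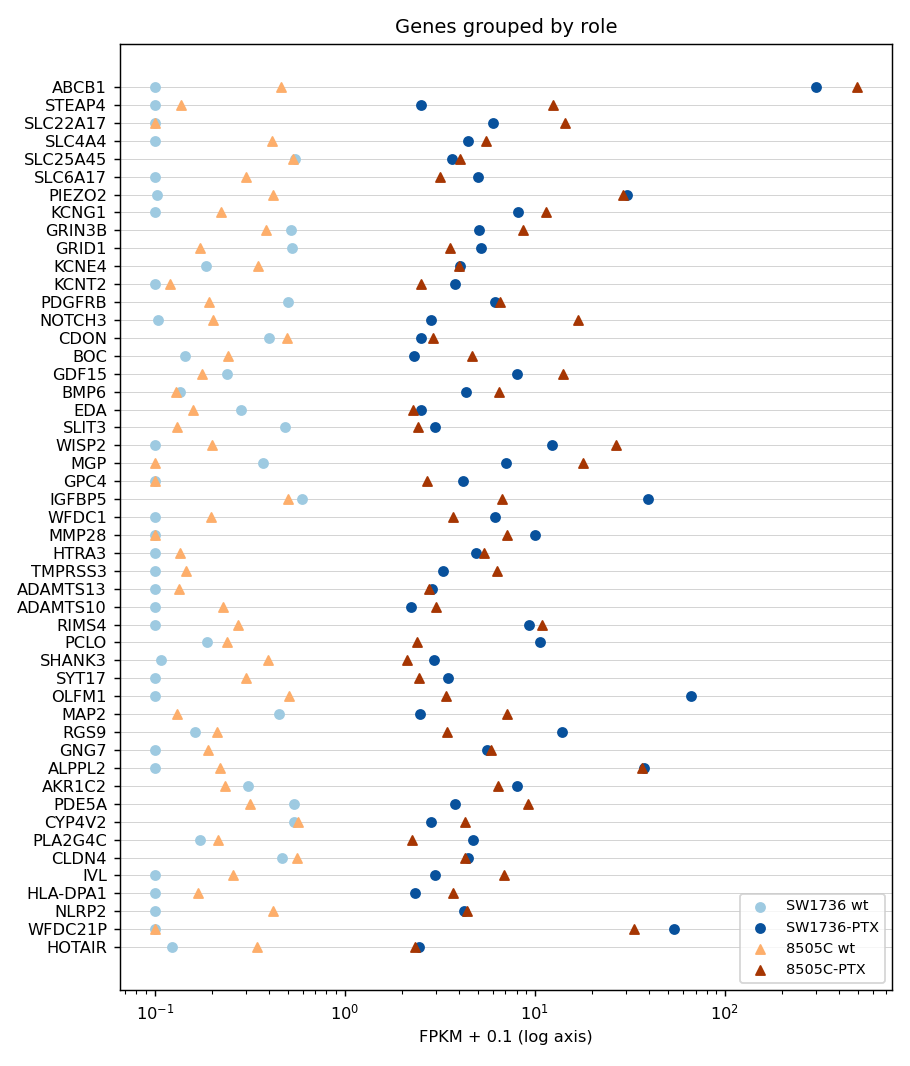
FPKM + 0.1 on a log axis (x) for 49 of the 102 genes, ordered from top to bottom as transport, signalling, matrix and proteases, neuronal genes, enzymes, and epithelial, immune and non-coding genes (circles SW1736, triangles 8505C; pale wt, dark PTX). The pale and dark points do not overlap for any gene because the rule fixed this, and OLFM1, IGFBP5 and NOTCH3 show wide gaps between the dark points.

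Receptors and their ligands were a further group. PDGFRB (chromosome 5, 150113839 to 150155859), the receptor tyrosine kinase for PDGF-BB that marks pericytes and fibroblasts, was at 0.402, 6.08, 0.0922 and 6.49 FPKM. The genes of 4 signalling routes were then looked up, a choice made after the members were seen. PDGFRA stayed at or below 0.169 FPKM, whereas the ligand gene PDGFA was at 2.81, 29.1, 7.41 and 22.6 FPKM and was called up-regulated in both lines. PDGFB, which encodes the chain of PDGF-BB, was at 6.24, 37.6, 4.75 and 6.42 FPKM. Of the 6 PDGF genes, PDGFRB included, 4 increases and 1 decrease were called in SW1736, with 1 gene not compared. In 8505C 2 and 0 were called, with 2 genes not compared. Over all genes compared in SW1736 and 8505C, 15.7% and 15% were called increased and 10.2% and 5.89% decreased. The genes of the 4 routes were few and were picked with the members known, so their counts only describe them.

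NOTCH3 (chromosome 19, 15159633 to 15200981) encodes a transmembrane receptor that is cleaved on contact with ligands of neighbouring cells, and it was at 0.00338, 2.73, 0.103 and 16.7 FPKM. NOTCH1 and NOTCH2 were on in all 4 libraries, between 6.27 and 13.1 and between 21.4 and 30.8 FPKM, and were not called in either line. The ligand gene JAG1, at 10.2, 43.7, 13.3 and 42.0 FPKM, and the target gene HEY1, at 0.147, 6.59, 0.526 and 4.42, were called up-regulated in both lines. HES1, another target, was at 6.82, 11.3, 1.70 and 23.6 FPKM and was called in 8505C and not in SW1736, a difference that was not tested. Of the 14 Notch genes looked up, NOTCH3 included, 4 were not compared in each line. There were 6 increases and 1 decrease in SW1736, and 5 and 0 in 8505C, to be read beside the shares over all genes given above. The SW1736 increases include DLL3, at 0, 1.89, 2.14 and 1.86 FPKM, which was already on in 8505C wt. The window before the RefSeq start of NOTCH3 (chr19:15200996-15201245, minus strand) is CpG-rich, with 28 CpG sites in capitals and 5 GC boxes. The window before its canonical GENCODE start gave the same values.
NOTCH3: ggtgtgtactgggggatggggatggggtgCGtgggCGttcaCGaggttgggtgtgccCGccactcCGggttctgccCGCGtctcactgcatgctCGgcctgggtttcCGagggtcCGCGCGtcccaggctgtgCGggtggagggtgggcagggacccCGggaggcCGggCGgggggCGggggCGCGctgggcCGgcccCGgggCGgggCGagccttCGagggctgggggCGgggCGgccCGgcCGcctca

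CDON and BOC encode related co-receptors that present Hedgehog ligands to PTCH1. CDON was at 0.301, 2.40, 0.397 and 2.82 FPKM, and BOC at 0.0439, 2.20, 0.142 and 4.54. The other co-receptor gene, GAS1, was at 0.544, 41.0, 0.979 and 20.8 FPKM, and missed the rule by its wt levels. The ligand genes SHH, IHH and DHH stayed at or below 0.228 FPKM, and GLI1, a target and transcription factor of the route, at or below 0.0730. CDON and BOC were on in both PTX libraries because the rule requires it. GAS1, which the rule did not take, was on there too, while the ligand genes and GLI1 were not. PTCH1 was at 5.25, 5.02, 0.983 and 3.16 FPKM and was called up-regulated in 8505C alone. SMO, the transducer of the route, was at 0, 1.15, 4.72 and 5.17 FPKM and was called up-regulated in SW1736 alone. Like DLL3, SMO was already on in 8505C wt. HHIP, an inhibitor, was at 13.4, 1.81, 6.65 and 4.70 FPKM and was called down-regulated in SW1736 alone. GLI2 and GLI3 were not called in either line. Among 13 Hedgehog genes, the 3 co-receptor genes included, 5 were not compared in each line. In each line 4 increases were called, with 1 decrease in SW1736 and 0 in 8505C.

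Among secreted signals, GDF15 (chromosome 19, 18386158 to 18389176), a cytokine of the TGF-beta family induced by cell stress, was at 0.141, 7.93, 0.0766 and 13.9 FPKM. BMP6, a bone morphogenetic protein, was at 0.0351, 4.21, 0.0293 and 6.36 FPKM, and MGP, a vitamin K-dependent matrix protein that binds BMPs and prevents calcification, at 0.269, 6.90, 0 and 17.9. Of 13 BMP genes, BMP6 and MGP included, 3 increases were called in SW1736 and 5 in 8505C, with 0 decreases in each line. In SW1736 1 of the 13 was not compared. SMAD6, an inhibitor induced by BMPs, was at 3.65, 3.65, 1.94 and 17.2 FPKM, and ID1 at 259, 234, 181 and 482. ID1, ID2 and ID3 had log2 fold changes of -0.14, 0.31 and -0.24 in SW1736 and of 1.42, 2.18 and 1.37 in 8505C, a difference that was not tested. EDA, the ligand of the ectodysplasin receptor, and SLIT3, an axon guidance ligand, were between 2.18 and 2.88 FPKM in the PTX libraries.

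Matrix and protease genes gave 3 of 92 silent matrix genes (3.26%) and 6 of 211 silent proteases and protease inhibitors (2.84%), beside 1.31% of silent protein-coding genes. The protease list was matched by symbol. It counted the pseudogene WFDC21P and did not hold the members HTRA3 and ENPEP. WISP2 (chromosome 20, 44715244 to 44727811), now CCN5, encodes a matricellular protein, and was at 0, 12.2, 0.101 and 26.6 FPKM. MMP28 (chromosome 17, 35756249 to 35795707), a metalloproteinase of epithelia, was at 0, 9.93, 0 and 7.07 FPKM, a rise of at least 399-fold and at least 253-fold, and of at least 355-fold for SW1736-PTX over 8505C wt. IGFBP5 (chromosome 2, 216672105 to 216695549), which binds insulin-like growth factors in the matrix, was at 0.498, 39.3, 0.400 and 6.57 FPKM. The serine proteases HTRA3 and TMPRSS3 were at 4.82 and 3.16 FPKM in SW1736-PTX and at 5.32 and 6.25 in 8505C-PTX. ADAMTS13, which cleaves von Willebrand factor, was at 0, 2.77, 0.0336 and 2.67 FPKM, and ADAMTS10, which acts on microfibrils, at 0, 2.13, 0.127 and 2.91. The whole matrix list had 39 increases and 20 decreases among 102 genes compared in SW1736, and 54 and 5 among 98 in 8505C. The increases were 38.2% and 55.1%, beside 15.7% and 15% of all genes, and the decreases 19.6% and 5.10%, beside 10.2% and 5.89%. The list's members of the rule, WISP2, MGP and GPC4, are among these increases. Among the 20 gene lists, all but the zinc finger list (9.35% and 9.36%) exceeded the share of increases over all genes in both lines. The channel list had 41.4% and 45.5%, the protease list 40.8% and 38.7%, and the enzyme list 35.7% and 35.4%. An excess of increases was thus not particular to matrix genes.

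Some members regulate small GTPases or actin. They were grouped after the members were seen, and the class was not counted among silent genes. ARHGEF25, an activator of RhoA, was at 0, 7.89, 0.397 and 8.39 FPKM. The GTPase-activating proteins ARHGAP28, ARHGAP6 and ARHGAP20 were at 5.02, 2.82 and 2.12 FPKM in SW1736-PTX and at 4.76, 2.72 and 2.24 in 8505C-PTX, and NGEF, an exchange factor of ephrin signals, at 5.80 and 4.17. These values differed by a factor of at most 1.39 between the resistant lines. TMOD1, which caps the pointed ends of actin filaments, was at 0.0490, 7.60, 0.120 and 6.96 FPKM, and MRAS, a Ras-related GTPase, at 0.144, 3.17, 0.138 and 3.04.

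Of 353 silent genes of metabolic enzymes, 6 (1.70%) were members, among them ALPPL2, beside 1.31% of silent protein-coding genes. This list was matched by symbol and did not hold every enzyme among the members, such as GGT5. AKR1C2 (chromosome 10, 4987776 to 5018033), an aldo-keto reductase of steroids, was at 0.208, 7.98, 0.135 and 6.28 FPKM. Its near-identical neighbour AKR1C1 was at 0.597, 120, 1.52 and 66.0 FPKM and AKR1C3 at 4.82, 68.6, 1.45 and 50.7, so the value of AKR1C2 depends on how shared reads were divided. PDE5A, which breaks down cyclic GMP, was at 0.439, 3.70, 0.217 and 9.12 FPKM, and GGT5, a gamma-glutamyltransferase that cleaves glutathione conjugates, at 0, 6.19, 0.167 and 6.34.

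Further members had other roles. SHOX, a homeobox gene of bone growth, was at 0, 6.16, 0 and 11.3 FPKM, and COLEC12, a scavenger receptor of the collectin family, at 0, 11.6, 0 and 4.34. DOK5, an adaptor of receptor tyrosine kinases, was at 0, 3.18, 0 and 2.88 FPKM, and GPC4, a heparan sulfate proteoglycan of the cell surface, at 0, 4.09, 0 and 2.60. These 4 genes had no wt signal in either line. PTP4A3, a phosphatase known from metastatic cells, was at 0.0579, 5.59, 0.202 and 5.64 FPKM, and ENPEP, an aminopeptidase that cleaves angiotensin II, at 0, 3.46, 0.316 and 6.76. EIF4E3, a cap-binding protein related to the translation factor EIF4E, was at 0.472, 4.33, 0.303 and 4.70 FPKM. SEPT3, a septin of neurons, was at 0, 8.59, 0.0629 and 2.86 FPKM. The members not described singly were LRRN2, HOGA1, SEL1L3, ADSSL1, BEAN1, PALMD, WFDC1, SLC25A45, NOXA1, VSTM2L, B4GALNT3, CCDC149, SLC6A17, ADHFE1, CYP4V2, YPEL4, SMIM1, NCALD, HSD11B1L, SYT17, FAM71E1, PLA2G4C and KIAA1407, and their levels in the PTX libraries ran from 2.04 FPKM (KIAA1407) to 8.23 FPKM (PALMD), both in 8505C-PTX.

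Epithelial and immune genes were read against the 0.783% of all silent names and the 1.31% of silent protein-coding genes that were members. CLDN4, a tight junction claudin, was at 0.368, 4.33, 0.459 and 4.16 FPKM and was 1 of 204 silent adhesion genes (0.490%), and IVL, which encodes involucrin of the cornified envelope, was at 0, 2.89, 0.157 and 6.79 and was 1 of 249 silent genes of keratinized and secretory epithelium (0.402%). HLA-DPA1 and NLRP2 were the members among 273 silent immune genes (0.733%), close to the share over all silent names and below that over silent protein-coding genes. HLA-DPA1, the alpha chain of an MHC class II molecule, was at 0, 2.25, 0.0679 and 3.61 FPKM, its partner HLA-DPB1 at 0, 0.764, 0 and 1.04, and HLA-DRA at 0 throughout, while CD74, the chaperone of class II molecules, was at 1.35, 0.128, 0.0545 and 0. CT45A10, a cancer-testis antigen from a family of near-identical copies on chromosome X, was at 0, 2.24, 0 and 4.08 FPKM and was 1 of 215 silent genes of that class. Among the other lists, 1 of 305 silent transcription factors (0.328%) was a member, the homeobox factor DLX4. The list, matched by symbol, did not hold the homeobox gene SHOX. Cytokines and growth factors by symbol gave 3 of 263 (1.14%), GDF15, BMP6 and, by its name alone, PDGFRB. Receptors of such factors gave 2 of 95 (2.11%), NOTCH3 and PDGFRB, and placental genes 2 of 37 (5.41%), ALPPL2 and PLAC9. Cytoskeletal genes gave 4 of 191 (2.09%), MAP2, PDLIM3, KIF26A and, by its name alone, EPB41L4A-AS2. Non-coding RNAs by name gave 5 of 3059 (0.163%). No member was found among 660 silent G protein-coupled receptors or 146 silent C2H2 zinc finger genes.

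The members lay on chromosome X and on every autosome except 13 and 15, with 11 on chromosome 19, where 745 names were silent in both wt libraries, 8 on chromosome 4 and 7 each on chromosomes 1 and 2. As a share of silent names, chromosome 22 was the highest with 5 of 266 (1.88%). Within 500 kb of another member lay 4 pairs: WISP2 and RIMS4 on chromosome 20, 24.0 kb apart with no gene name between them, NLRP2 and PTPRH and also GNG7 and TLE2 on chromosome 19 (180 and 295 kb), and ALPPL2 and NGEF on chromosome 2 (468 kb). The genes compared that lay between GNG7 and TLE2 had a median log2 fold change of -0.23 in SW1736 and 0.10 in 8505C, whereas those between NLRP2 and PTPRH had 1.75 and 1.44. The nearest genes on either side that were above 2 FPKM in all 4 libraries, 199 in number and at a median distance of 109 kb, had median log2 fold changes of 0.02 and -0.03, beside -0.10 and -0.09 over all 9176 such genes. Of these neighbours, 9.05% were called up-regulated in each line, beside 5.00% and 4.45% of all such genes.

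For 14 members another gene above 2 FPKM overlapped the span, 4 of them on the same strand, and the sources used here do not say whether strand was used in counting. The hairpin MIR6891 lies within HLA-B (70.9, 291, 44.3 and 271 FPKM), MIR27B within C9orf3 (7.61, 13.2, 2.60 and 5.81 FPKM) and LOC400927-CSNK1E is a read-through of CSNK1E (40.7, 114, 40.7 and 37.8 FPKM). A value for a hairpin in these libraries of messenger RNA is no measure of the mature microRNA. LIMS3L is listed over the same span and strand as LIMS3 (0, 2.72, 0.345 and 1.72 FPKM), so their reads may not be separable. LIMS3-LOC440895, which overlaps both on that strand, was at 0, 0.101, 1.85 and 0.0742 FPKM, so the span was not silent in 8505C wt. LIMS3L, FAHD2CP, INTS4P2 and MST1 also have near-identical copies elsewhere in the genome, so their values depend on how shared reads were divided.

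The levels of the members were also compared between the libraries labelled as the 2 resistant lines, of which the origin of SW1736-PTX was not tested. The median size of the log2 ratio between the PTX libraries was 0.52 for the members and 0.27 over all genes above 2 FPKM in both, and 52.9% of the members and 79.0% of all such genes were within a factor of 1.5. The differences went both ways: the median log2 ratio of 8505C-PTX to SW1736-PTX was 0.03, with 54 genes higher in 8505C-PTX and 48 in SW1736-PTX. The levels were within a factor of 2 for 77 members (75.5%), beside 92.1% of all 10572 genes above 2 FPKM in both PTX libraries. Among genes with a mean of at most 6.40 FPKM in the PTX libraries, the shares were 81.6% of 76 members and 93.3% of 2656 other genes. A gap beyond a factor of 3 was found for 9 members (8.82%), beside 2.29% of all genes on in both. Higher in SW1736-PTX were OLFM1, with a ratio of 20.1, IGFBP5 (5.98), PCLO (4.59), RGS9 (4.10), PRUNE2 (3.32), a scaffold protein, and SEPT3 (3.00, just past the factor). Higher in 8505C-PTX were NOTCH3 (6.13), STEAP4 (5.10) and C8orf4 (3.24), now TCIM. With 1 library per line, these ratios cannot be set against the spread between cultures.

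**Figure D5:**
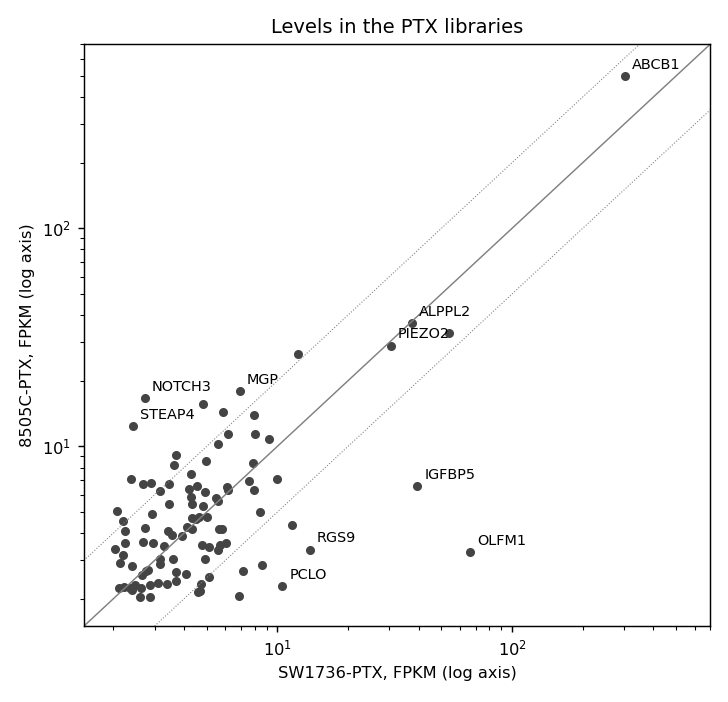
FPKM of the 102 genes in SW1736-PTX (x) and 8505C-PTX (y), both on log axes, with the line of equality and dotted lines at a factor of 2. Of the points, 77 lie between the dotted lines, and OLFM1 is the farthest from equality, with 66.2 against 3.29 FPKM.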

How the data were processed

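Total RNA of 4 cell populations was sequenced by the authors as 75 bp single-end reads. Adapters were masked with Cutadapt, low-quality ends trimmed with ERNE, reads aligned with STAR against hg38, and genes quantified by StringTie (versions and annotation not given in the sources used here; the submitters' processing notes name bcl2fastq 2.20). The deposited coverage signal is the mean depth per base. The deposited FPKM and TPM are StringTie's values, of which TPM is scaled to an equal total. No read counts were used, and all depths and read numbers are estimates from coverage, FPKM and GENCODE 44 transcript lengths.

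Rows of a gene name were summed. Genes above 0.5 FPKM in at least 1 library of a line were compared, and a log2((PTX + 0.1)/(wt + 0.1)) beyond 1.5 was called. The pseudocount understates changes of low genes. Folds over a gene at 0 use a floor of 3 reads per library, and cover counting error only. Current names were found in RefSeq for 101 of 102 members (10 renamed); 70 had a RefSeq promoter. The members, the gene lists and the rule for named genes (the highest members, up to 4 of each list, genes at the limits, largest ratios, close pairs and the ABCB1 region) were chosen with earlier results of these data known; other members and the signalling partners and relatives named were added after their values were seen. Selection was tested on simulated data. Alternatives changed limits, unit, scaling, pseudocount, row handling and libraries. Computation used pandas 2.3.3 and NumPy 2.4.6 under Python 3.11.15, with figures drawn in matplotlib 3.10.9.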

Additional observations from a re-analysis of the deposited data

How the results depend on the processing

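The choice of limits set the size of the set. The number of genes became 66 with wt below 0.25 FPKM, 236 with wt below 1, 9 with wt at 0, 288 with PTX above 1 and 22 with PTX above 5. With TPM under the same limits it was 174 and the reverse rule took 18; 1 FPKM corresponds to between 2.21 and 2.29 TPM here, and 61 of the 102 remained. Leaving out 1 library from the rule, an alternative added after the data were seen, gave between 198 and 480 genes, all 102 included. Scaling by the median of ratios (104), the highest row (101), names with 1 row (95) and no overlapping gene (88) stayed within 1.5 times. The reverse rule took 33 genes above 1 FPKM in wt cells and 31 below 1 FPKM in PTX cells. The members' median log2 fold change in SW1736 and 8505C was 3.09 and 2.82 with a pseudocount of 0.5, 2.34 and 2.12 with 1, 7.77 and 4.99 with 0.01, 6.00 and 4.71 with TPM, and 6.91 and 5.04 with genes at 0 set to 3 reads; SW1736-PTX over 8505C wt gave 4.24, also added later. The genes called up-regulated in SW1736 and 8505C, 2236 and 2068, were 1222 and 969 with a pseudocount of 1 and 850 and 1018 with FPKM above 0.5 in both libraries, and 1359 in 8505C with 0.5. Scaling moved the median over all genes compared from 0.01 to 0.10 in SW1736. A median was taken as moved beyond 0.1. The median ratio between the PTX libraries moved by less in each of its 4 alternatives. No paired analysis was possible because the results come from no test. The labels tie the wt and PTX libraries of a line, and a model with line as a term, which would leave 1 residual degree of freedom, was not fitted. Depth limits single genes most where wt levels rest on a few reads.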
